A study of Mus musculus with 5 samples.

Results

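The 36 genes described here carry glucose from its uptake to pyruvate and lactate, bring pyruvate into mitochondria, and build or break down glycogen. They were matched by gene symbol, and the match used no measured value. All 36 were found among the 18783 genes of the authors' deposited table. They were measured by sequencing polyadenylated RNA of primary astrocyte cultures from newborn (P0-P1) C57BL/6 mice, grown in medium with glucose, glutamine, pyruvate and serum. Control cultures were untreated (2 libraries). The Aβ group received 1 µM amyloid-β peptide for 5 days (2 libraries), and the Aβ+DFMO group received 1 µM amyloid-β together with 50 µM DFMO for 5 days (1 library). Treatment began on day 7 in vitro and all cultures were taken on day 12. DFMO (difluoromethylornithine) blocks ornithine decarboxylase, the first enzyme of polyamine synthesis. No group analysed here received DFMO without amyloid-β.

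Glycolysis splits glucose into pyruvate and yields ATP and NADH in the cytosol. Hexokinase, phosphofructokinase and pyruvate kinase are its controlled steps, and most other enzymes work near equilibrium. Astrocytes are known for a high glycolytic rate: they hold most of the glycogen of the brain, turn much of their pyruvate into lactate and release it through monocarboxylate transporters. Pyruvate that is not reduced to lactate enters mitochondria through a carrier and is oxidised by the pyruvate dehydrogenase complex, which a family of kinases switches off.

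Depth differed between the groups. The Control and Aβ libraries held 46886111 to 105544237 reads, 9.72 to 21.9 times the 4825677 reads of the Aβ+DFMO library, and 84.42% to 85.18% of the reads fell in exons. One read of the Aβ+DFMO library was worth 7.45 normalized units, from which the reads behind each gene were estimated: 34 of the 36 genes had 65 to 2282 reads there, Slc16a3 had 8 and Pygm had 1. Values per gene were used only as the authors' means per group, so the spread over libraries of a group and any overlap between groups cannot be given. The sources used here do not say whether replicate libraries came from separate cultures, and the p-values then measure only a spread between these libraries, which may be technical. For the astrocyte label 10 markers were looked up, all of which were measured and above 0. Every measured marker of the other cell types was above 0 too, so this cannot check the label. The filament gene Gfap had an authors' mean of 57209 in Control. Markers of other cells were present too. The summed authors' means in Control were 173164 for the 10 astrocyte markers and 80172 for 8 fibroblast, meningeal and mural markers, of which Acta2 held 65706. They were 47032 for 10 genes of the oligodendrocyte lineage, 22554 for 8 measured neuron markers and 19674 for 10 of microglia and macrophages.

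Many glycolytic genes are known targets of hypoxia-inducible factor 1, whose binding element has the core ACGTG or GCGTG. Both cores were searched on both strands (CACGT and CACGC on the other) in the 250 bases before each RefSeq start (GRCm38.p6). Overlapping matches were each counted, so that CACGTG counts more than once, as CACGT and as ACGTG. All 36 genes matched a RefSeq entry, with 53 windows. A core lay in 40 of these 53 windows (75.5%) and in 12679 of the 32851 windows of all genes (38.6%), which were not matched to the former for base composition. By gene, 30 of 36 (83.3%) had a window with a core, against 11226 of 27025 (41.5%). Shown here, with the cores in capitals, are a window each of Ldha, Slc16a1 and Aldoa, with 5, 4 and 1 matches. By this count 5 was the most in any window of the 36 genes. The separate stretches in capitals are as many for Slc16a1 as for Ldha. The 3 windows lie, in that order, at chr7:46845554-46845803 (plus strand), chr3:104638414-104638663 (plus strand) and chr7:126799255-126799504 (minus strand). A match is a string of letters and not a shown binding site.
Ldha: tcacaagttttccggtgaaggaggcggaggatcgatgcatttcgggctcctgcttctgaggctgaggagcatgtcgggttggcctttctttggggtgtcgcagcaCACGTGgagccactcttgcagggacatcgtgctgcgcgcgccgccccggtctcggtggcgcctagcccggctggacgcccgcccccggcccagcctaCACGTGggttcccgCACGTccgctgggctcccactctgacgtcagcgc
Slc16a1: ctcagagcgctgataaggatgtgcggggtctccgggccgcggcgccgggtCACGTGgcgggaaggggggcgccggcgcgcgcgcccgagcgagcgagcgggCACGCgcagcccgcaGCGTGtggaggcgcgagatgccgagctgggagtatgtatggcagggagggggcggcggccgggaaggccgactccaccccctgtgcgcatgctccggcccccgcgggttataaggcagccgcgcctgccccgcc
Aldoa: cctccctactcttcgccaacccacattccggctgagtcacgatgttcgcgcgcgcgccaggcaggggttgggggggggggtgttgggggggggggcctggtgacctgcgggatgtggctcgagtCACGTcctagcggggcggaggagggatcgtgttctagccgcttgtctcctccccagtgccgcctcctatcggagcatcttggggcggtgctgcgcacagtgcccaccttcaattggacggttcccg

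Per kilobase of transcript, the authors' means in Control ran over a wide range. Genes of aldolase, the payoff steps and lactate were among the highest: Aldoa, aldolase A, stood at 13918, Ldhb, the heart-type lactate dehydrogenase subunit, at 11575, and Pkm, pyruvate kinase, at 8701. Aldoc, the brain aldolase C, followed at 6084, Eno1 (enolase 1) at 5678, Pgam1 (phosphoglycerate mutase) at 5523 and Ldha (the muscle-type lactate dehydrogenase subunit) at 5321. The brain glycogen phosphorylase gene Pygb stood at 3871 per kilobase and the muscle form Pygm at 5.2. Slc2a1, the glucose transporter GLUT1, stood at 731, and the first kinases Hk1 and Hk2 at 825 and 182.

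**Figure D1:**
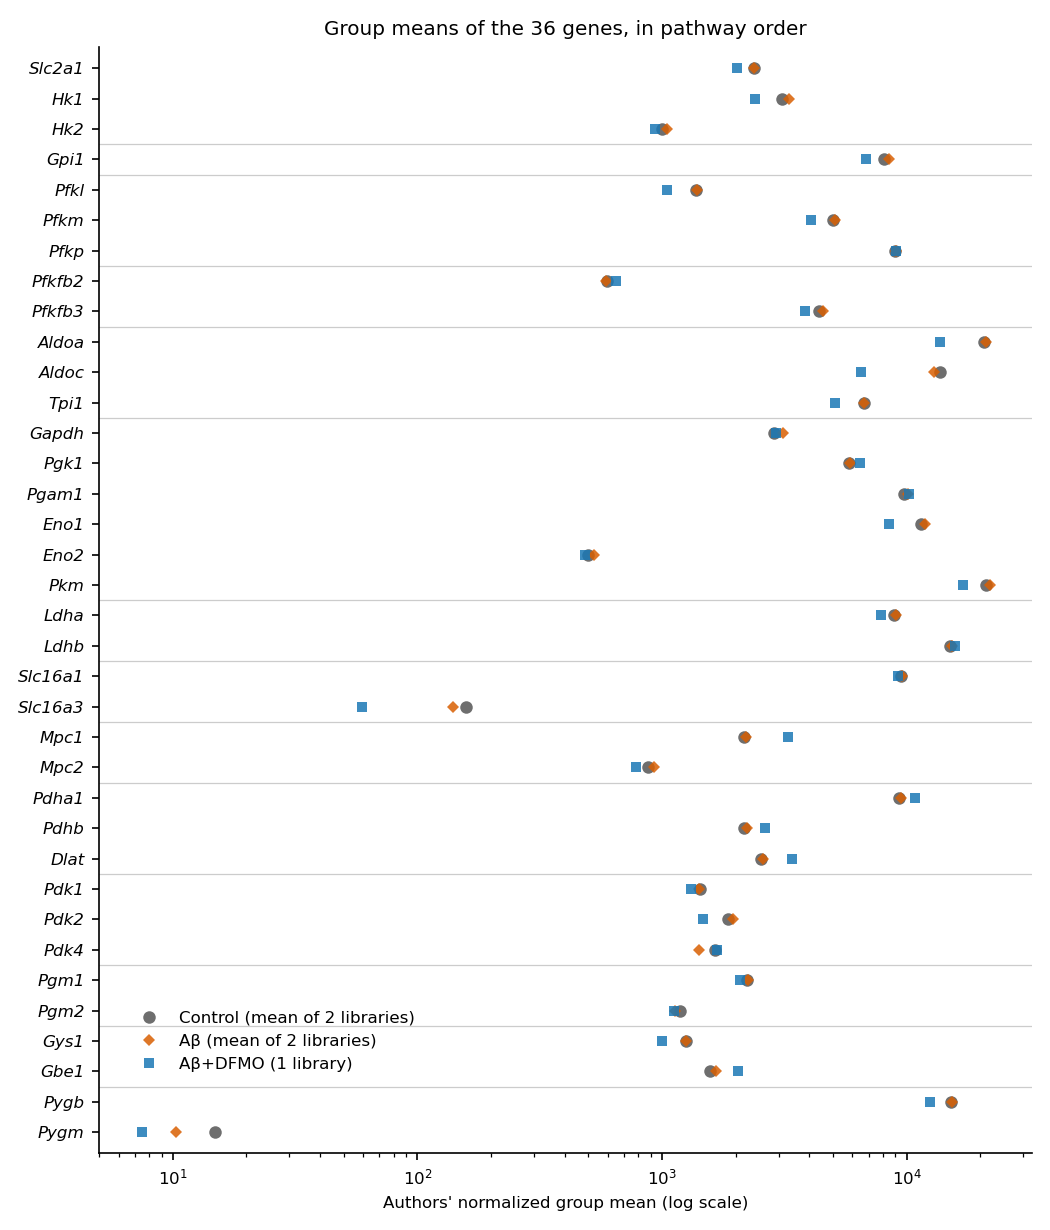
Authors' normalized mean of each of the 36 genes in Control (circles, 2 libraries), Aβ (diamonds, 2 libraries) and Aβ+DFMO (squares, 1 library), on a log axis, in pathway order with lines between roles; no error bars are drawn because only group means were used. Circles and diamonds nearly coincide for most genes, while the squares lie to the left for Aldoc (13646, 12920 and 6513) and to the right for Mpc1 (2160, 2203 and 3282).

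Amyloid-β was first compared with no treatment, which asks what the peptide changes in these cultures. None of the 36 genes passed an adjusted p under 0.05 in the authors' deposited table (DESeq2, Benjamini-Hochberg over all 18783 genes), where 54 genes, or 0.287%, were called. None of the 36 had an unadjusted p under 0.05 in the authors' deposited table either, against 324 of all 18783 genes. The log2 ratios of Aβ to Control were small: 32 of 36 lay within 0.1 of 0, 28 were above 0 and 8 below, and the median was 0.025 beside 0.0024 for all genes. Without Pygm, which rests on few reads, they ran from -0.21 to 0.12.

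The highest of these was Gapdh, glyceraldehyde phosphate dehydrogenase, with authors' means of 2865 in Control and 3112 in Aβ and an implied 95% interval of the log2 ratio from -0.06 to 0.30. The lowest was Pdk4, a kinase that switches off pyruvate dehydrogenase, at 1645 in Control and 1419 in Aβ. Its log2 ratio of -0.21 had an implied 95% interval from -0.44 to 0.01 and the smallest p of the 36 in the authors' deposited table (unadjusted p = 0.0588). The intervals are implied, in that the standard error was taken as the size of the log2 ratio over the normal deviate of the authors' p. For the controlled steps they bounded the difference closely: Hk1 had a log2 ratio of 0.10 (-0.07 to 0.27), Pfkp, the platelet-type phosphofructokinase, 0.02 (-0.13 to 0.17) and Pkm 0.05 (-0.09 to 0.19). For lactate export, Slc16a1, the transporter MCT1, had a log2 ratio of 0.01 (-0.15 to 0.17), with means of 9498 and 9567. Of the glycogen genes, Pygb had 0.02 (-0.12 to 0.17), Gys1, glycogen synthase, 0.01 (-0.21 to 0.23), the branching enzyme gene Gbe1 0.08 (-0.13 to 0.29) and Pygm, on few reads, -0.53 (-2.34 to 1.28). A p above the threshold does not show that these genes did not differ. In the same comparison 6 of the 10 microglia and macrophage markers fell in the authors' deposited table (DESeq2, adjusted p under 0.05), and the log2 ratio of their sum was -0.67. The part of those cells in the values of the 36 genes was not tested, and in a bulk sample fewer cells of a type and less RNA per cell cannot be told apart.

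DFMO with amyloid-β was then compared with amyloid-β alone, which asks what DFMO adds to the peptide. Several glycolytic enzymes, the aldolases above all, were lower in the Aβ+DFMO library. Mpc1, of pyruvate entry into mitochondria, and Dlat, of pyruvate oxidation there, were higher. Only Aldoc was still called once a trend with transcript GC content was subtracted, as given below. Of the 36 genes, 10 passed an adjusted p under 0.05 in the authors' deposited table (DESeq2, Benjamini-Hochberg), 8 lower (Hk1, Gpi1, Aldoa, Aldoc, Tpi1, Eno1, Pkm and Pygb) and 2 higher (Mpc1 and Dlat). Of all 18783 genes 9.18% were called, 5.18% lower and 4% higher. That share takes in genes of low mean, whereas 34 of the 36 had a mean of at least 200 in Aβ. The median number of reads in the Aβ+DFMO library was 416 over the 36 genes. It was 145 over all genes with a mean of at least 200, so that set is not matched to the 36 in reads either. Among the 11674 genes with a mean of at least 200 in this comparison, 1681 were called, 943 lower and 738 higher. At an unadjusted p under 0.05, 15 of the 36 passed in the authors' deposited table. So did 3931 of all 18783 genes, and 3620 of the 11674 with a mean of at least 200. The Aβ+DFMO group is 1 library, so no p-value of this comparison holds a spread within that group: each takes it to have varied as the replicated groups did. The median log2 ratio of the 36 genes was -0.18, beside 0.008 for all genes, with 26 below 0 and 10 above.

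Across the whole table the log2 ratios of this comparison fell with rising transcript GC content, and the called genes below are therefore also given with that trend subtracted, as a GC-corrected log2 ratio. Across 11639 genes with a mean of at least 200, Spearman's rho between GC content and log2 ratio was -0.71 and Pearson's r -0.67, whereas for Aβ against Control they were 0.11 and 0.09. Across the 36 genes, which come from the same libraries and are not independent, rho was -0.81 and r was -0.74. In the 12 of the 36 with the lowest GC content (42.9% to 49.7%) the median log2 ratio was 0.16, and 2 were called higher. In the middle 12 (50.6% to 54.3%) it was -0.24 with 3 called lower, and in the 12 with the highest (54.5% to 57.8%) it was -0.41 with 5 called lower. The trend was fitted over the 11639 genes and subtracted, and p was recomputed from the authors' DESeq2 values with the implied standard error. The 3 medians were then 0.04, -0.09 and -0.05, and 1 of the 36 genes, Aldoc, was called, where 1.65% of 18592 genes were, 0.78% lower and 0.871% higher. What gave the trend was not tested: the GC trend, the low depth and the treatment all belong to the 1 Aβ+DFMO library and cannot be told apart.

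**Figure D2:**
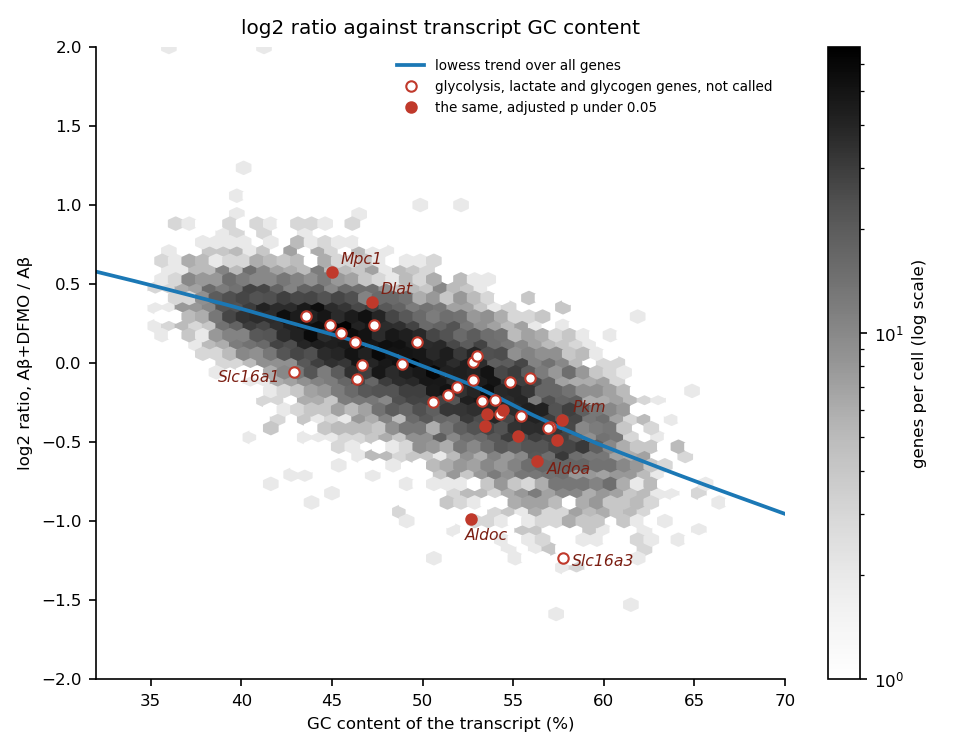
log2 ratio of Aβ+DFMO to Aβ (vertical axis) against GC content of the transcript in percent (horizontal axis); grey cells count the 11639 genes with a mean of at least 200 on a log scale, the line is their lowess trend, and circles are 35 of the 36 genes, filled where the adjusted p was under 0.05 (Pygm, with 1 read, is left out). Most circles lie along the falling line, and Aldoc at 52.7% GC and a log2 ratio of -0.99 lies well below it.

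**Figure D3:**
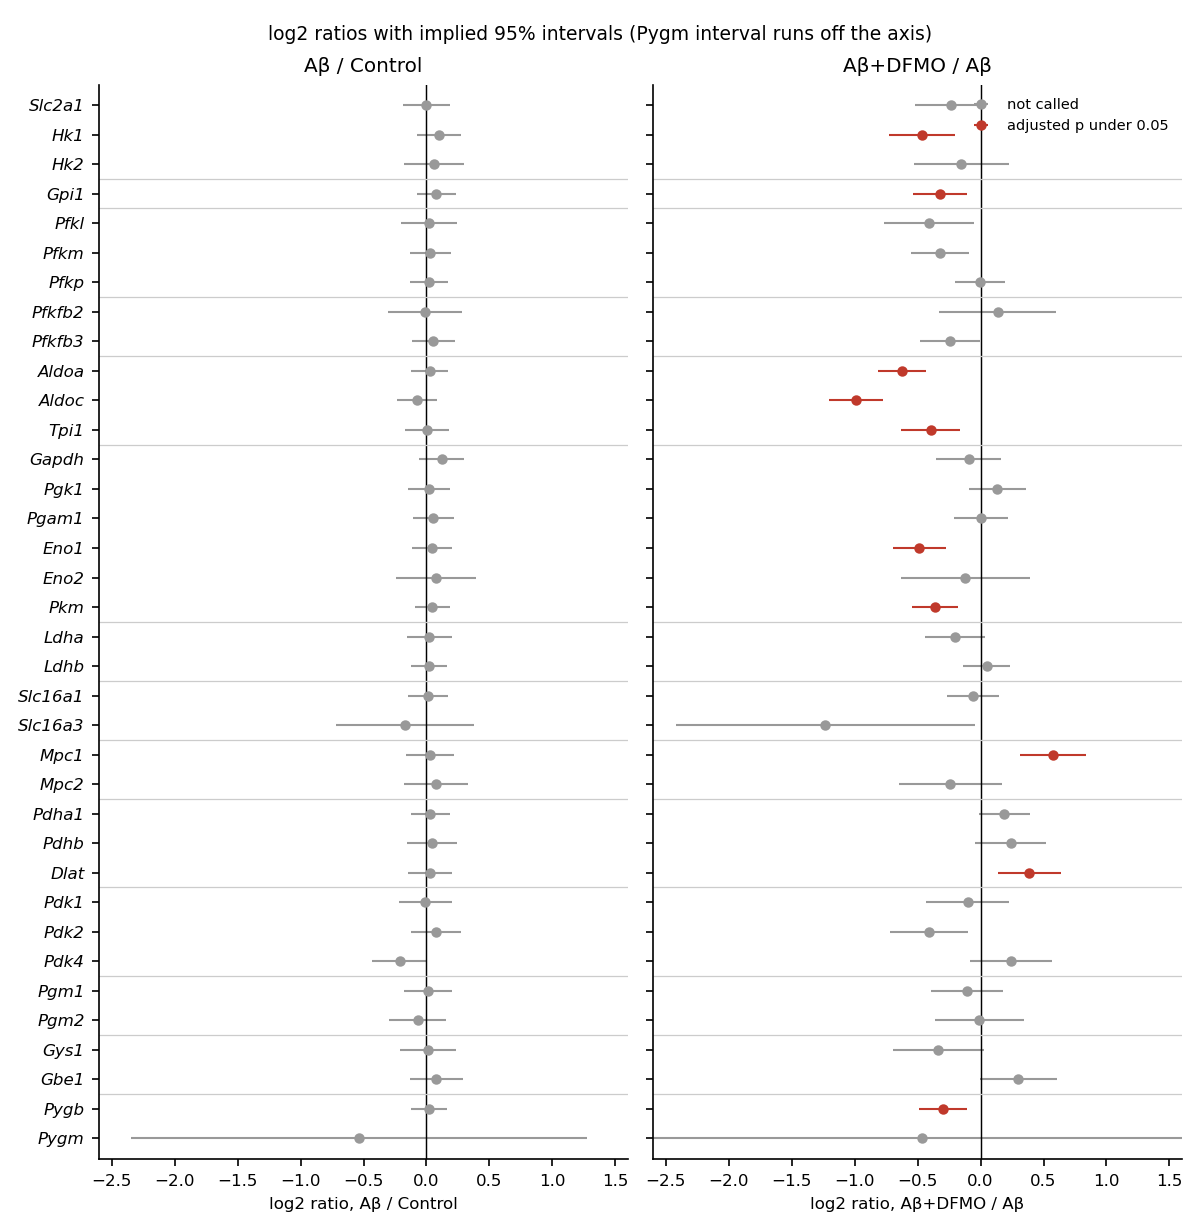
log2 ratio of Aβ to Control (left) and of Aβ+DFMO to Aβ (right) for the 36 genes in pathway order, with implied 95% intervals as bars; filled red points passed an adjusted p under 0.05 in the authors' deposited table (DESeq2). Every interval on the left includes 0, and on the right 8 red points lie below 0 and 2 above.

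At glucose entry, Hk1, the main brain hexokinase, which traps glucose as its phosphate, had authors' means of 3090 in Control, 3311 in Aβ and 2400 in Aβ+DFMO. The Control and Aβ values lay close together and the Aβ+DFMO value lay below both. In the authors' deposited table it fell by 0.46 on the log2 scale from Aβ to Aβ+DFMO (DESeq2, adjusted p = 0.0102), with an implied standard error of 0.133 and 322 reads. Its GC-corrected log2 ratio was -0.18 (adjusted p = 0.839, from the DESeq2 values). Slc2a1 and Hk2 did not pass, at log2 ratios of -0.24 and -0.15 in the authors' deposited table. The Hk1 share of the Hk1 and Hk2 pair, as level per kilobase, was 81.9% in Control, 82.3% in Aβ and 79.0% in Aβ+DFMO.

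Gpi1, which turns glucose 6-phosphate into fructose 6-phosphate, stood at 8067, 8517 and 6811 in Control, Aβ and Aβ+DFMO. It fell by 0.32 in the authors' deposited table (implied standard error 0.108, DESeq2 adjusted p = 0.0364), just inside the threshold. The predicted copy Gm1840, with which Gpi1 shares 75-base stretches, also fell, by 0.40 in the authors' deposited table (DESeq2 adjusted p = 0.0336). The GC-corrected log2 ratio of Gpi1 was -0.14 (adjusted p = 0.860, from the DESeq2 values).

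The next step, phosphofructokinase, commits the sugar to glycolysis, and no subunit passed. Pfkp had means of 8964, 9082 and 9064, which are nearly the same in all groups, and a log2 ratio of Aβ+DFMO to Aβ of -0.00 with an implied 95% interval from -0.20 to 0.20. Pfkm, the muscle-type subunit, lay just outside the threshold at 5016, 5117 and 4084 (log2 ratio -0.33 in the authors' deposited table, DESeq2 adjusted p = 0.0571). Pfkl, the liver-type subunit, had means of 1378, 1394 and 1051 and a log2 ratio of -0.41 with a wider implied interval (-0.76 to -0.05). GC-corrected, the 3 subunits stood at -0.04 for Pfkp, -0.10 for Pfkm and -0.03 for Pfkl. Per kilobase, Pfkp made up 50.2% of the 3 subunits in Control, 50.1% in Aβ and 55.9% in Aβ+DFMO. Fructose 2,6-bisphosphate, the strongest activator of this step, is made by enzymes of the Pfkfb family: Pfkfb3 stood at 4398, 4570 and 3853 and Pfkfb2 at 595, 590 and 648, and neither passed.

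All 3 genes of the aldolase and triose step fell, and Aldoc and Aldoa had the lowest log2 ratios of the 10 called genes. Aldoc, which is typical of astrocytes, had authors' means of 13646 in Control, 12920 in Aβ and 6513 in Aβ+DFMO, the last on 874 reads (exact Poisson 95% interval 817 to 934, counting error only). The Aβ+DFMO mean differed from that of Aβ by -49.6% and from that of Control by -52.3%, whereas Aβ differed from Control by -5.3%. The log2 ratio of Aβ+DFMO to Aβ in the authors' deposited table was -0.99 (DESeq2, adjusted p = 4.72e-16), with an implied standard error of 0.110, and its p ranked 13 among the 18783 genes. Corrected for GC it was -0.85 (adjusted p = 2.09e-11, from the DESeq2 values). No 75-base stretch of the Aldoc transcript occurs in another gene's transcripts. The gene lies on the plus strand at chr11:78322968-78327781 (GRCm38).

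Aldoa, the form found in most tissues (minus strand, chr7:126795234-126800751), stood at 20675, 21071 and 13682, so that the Aβ+DFMO value was again below the other groups. It fell by 0.62 in the authors' deposited table (implied standard error 0.098, DESeq2 adjusted p = 5.77e-08, on 1836 reads). Corrected for GC it stood at -0.28 (adjusted p = 0.150, from the DESeq2 values), and at -0.35 (adjusted p = 0.0257) where the GC content of the shortest of its listed transcripts was used, a setting chosen after seeing the data. Per kilobase, Aldoc made up 30.4% of the aldolase pair in Control, 28.9% in Aβ and 24.0% in Aβ+DFMO; over the lengths of the listed transcripts these shares ran from 25.7% to 37.0%, 24.3% to 35.3% and 20.0% to 29.7%. The ratio of Aldoc to Aldoa per gene, which needs no length, went from 0.66 in Control and 0.61 in Aβ to 0.48 in Aβ+DFMO. The log2 change of that ratio from Aβ to Aβ+DFMO was -0.37, and -0.57 from GC-corrected values; it has no test of its own. Tpi1, triose phosphate isomerase, stood at 6679, 6700 and 5088 and fell by 0.40 in the authors' deposited table (implied standard error 0.120, DESeq2 adjusted p = 0.0161); the GC-corrected value was -0.22 (adjusted p = 0.630, from the DESeq2 values).

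Of the 10 astrocyte markers 8 had log2 ratios below 0 and 2 above, Aqp4 (0.04) and Gjb6 (1.92, on 4 reads). Of the 10, 3 fell in the authors' deposited table (Aldh1l1, Glul and Gfap; DESeq2, adjusted p under 0.05), and after GC correction 3 were again called lower, Aldh1l1, Glul and Slc1a3. The log2 ratio of the summed means of the 10, which were 173164 in Control, 172931 in Aβ and 140052 in Aβ+DFMO, was -0.30. The sum over 10 oligodendrocyte lineage markers went from 47032 in Control and 46413 in Aβ to 25458 in Aβ+DFMO (log2 ratio -0.87, 8 of 10 called lower, 5 after GC correction), that over microglia and macrophage markers from 19674 and 12384 to 8716 (log2 ratio -0.51, 2 of 10 called lower, 0 after GC correction), and that over fibroblast and mural markers from 80172 and 82591 to 96201 (log2 ratio 0.22, 2 of 8 called higher, 2 after GC correction). Of 8 measured neuron markers 2 were called lower and 1 higher (log2 ratio of the sum 0.17), of 5 ependymal markers 1 lower (-0.87) and of 6 endothelial markers none (0.31, at 864 summed units in Aβ+DFMO), and no marker of any list was listed at 0. The fibroblast and mural sum was mostly Acta2, at 65706 in Control, 66644 in Aβ and 81013 in Aβ+DFMO. Of those 8 markers 5 had log2 ratios below 0 and 3 above, with a median of -0.13 (GC-corrected 0.21). Of the 8 neuron markers 5 lay below 0 and 3 above, with a median of -0.36 (GC-corrected -0.35). The ependymal sum was mostly Foxj1, at 4489 in Control, 4396 in Aβ and 2303 in Aβ+DFMO. The log2 ratio of Foxj1 was -0.93, and -0.35 after GC correction, where it was not called. The part of these cell types in the differences of the 36 genes was not tested.

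The later steps of glycolysis, which return ATP, held a mixed picture. Eno1 stood at 11510, 11879 and 8474 and fell by 0.49 in the authors' deposited table (implied standard error 0.108, DESeq2 adjusted p = 0.00038). Pkm, which makes pyruvate, stood at 21161, 21859 and 17005 and fell by 0.36 in the authors' deposited table (implied standard error 0.092, DESeq2 adjusted p = 0.0028). Both have GC-rich transcripts, at 57.4% and 57.7%. GC correction placed Eno1 at -0.09 (adjusted p = 0.963) and Pkm on the other side of 0 at 0.05 (adjusted p = 0.980, from the DESeq2 values). Gapdh, Pgk1 and Pgam1, which act before enolase, did not pass: Gapdh stood at 2865, 3112 and 2914 in Control, Aβ and Aβ+DFMO, Pgk1 (phosphoglycerate kinase) at 5806, 5897 and 6473, and Pgam1 at 9804, 10185 and 10223. Eno2, the neuronal enolase, stood at 500, 527 and 484.

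How reads were shared among copies limits these later steps. Of the 75-base stretches of the transcript, 80.3% for Gapdh, 67.5% for Pgk1, 65.4% for Eno1 and 40.6% for Pgam1 also occur in transcripts of other genes, 121 genes in the case of Gapdh, and the sources used here do not say how such reads were counted. The copy Eno1b had authors' means of 13277, 14768 and 14032, higher than those of Eno1 itself, with 149 of 150 bases the same in a stretch of the coding sequence. Its log2 ratio of Aβ+DFMO to Aβ was -0.07 in the authors' deposited table, and the summed means of Eno1 and Eno1b gave a log2 ratio of -0.24, between those of the 2 genes. Pgk1-rs7 stood at 5416, 5341 and 5538, and with Pgk1 gave 0.10. The levels of these 4 genes are therefore uncertain. In contrast Hk1, Dlat, Pygb and Aldoc share no such stretch, while Aldoa shares 1.53% of its stretches, Gpi1 14.8% and Pkm 19.6%.

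For lactate, neither subunit of lactate dehydrogenase passed. Ldhb had means of 15093, 15319 and 15829 and a log2 ratio of Aβ+DFMO to Aβ of 0.05 (implied 95% interval -0.14 to 0.23). Ldha stood at 8923, 9060 and 7873, a log2 ratio of -0.20 (-0.44 to 0.03). The heart-type subunit Ldhb made up 68.5% of the pair per kilobase in both Control and Aβ and 72.1% in Aβ+DFMO. The GC-corrected values were 0.20 for Ldhb and -0.12 for Ldha. The exporter Slc16a1 stood at 9498, 9567 and 9196. Its log2 ratio of -0.06 was that of a gene with the lowest GC content of the 36 (42.9%), and corrected for GC it was -0.31 (adjusted p = 0.146, from the DESeq2 values). Slc16a3, the transporter MCT4 of strongly glycolytic cells, had low means of 158, 140 and 59.6, the last on 8 reads (exact Poisson 95% interval 3.5 to 15.8). Its log2 ratio of -1.23 was the lowest of the 36, with an implied 95% interval from -2.42 to -0.04 and an adjusted p of 0.215 in the authors' deposited table (DESeq2).

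**Figure D4:**
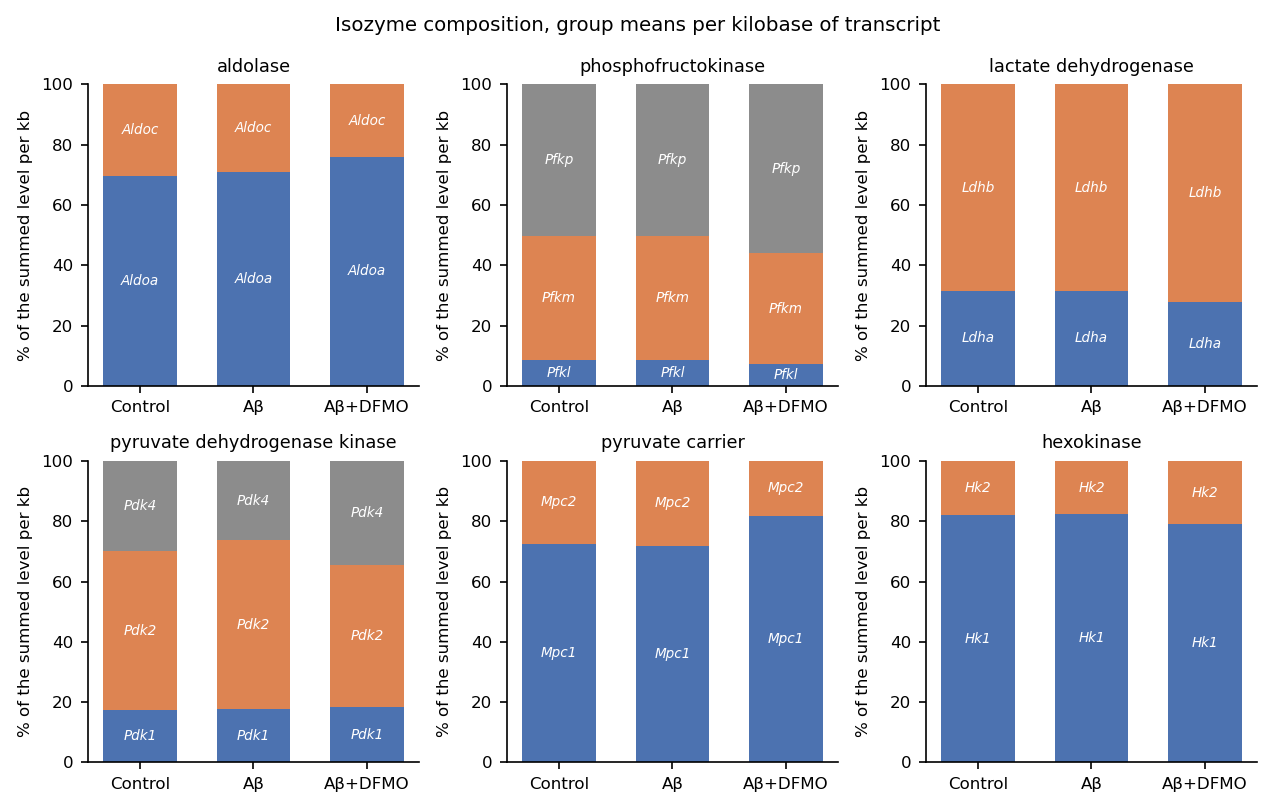
Share of each isozyme in the summed level per kilobase of its set, which holds only the genes drawn (Hk3 is not in the hexokinase set), in percent, from the authors' means in Control, Aβ and Aβ+DFMO, with no error bars because only group means were used. Control and Aβ bars are nearly the same in most sets, whereas in Aβ+DFMO the Aldoc part was 24.0% and the Mpc1 part 81.8%.

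At the entry of pyruvate into mitochondria, 1 of the 2 carrier genes, Mpc1, lay in the opposite direction. Its transcript has a low GC content, 45.0%, at which the fitted trend over all genes was itself 0.18. Mpc1, a subunit of the mitochondrial pyruvate carrier (plus strand, chr17:8282904-8297661), had means of 2160 in Control, 2203 in Aβ and 3282 in Aβ+DFMO, on 440 reads. Control and Aβ lay together and Aβ+DFMO 49.0% above Aβ. In the authors' deposited table it rose by 0.58 on the log2 scale (implied standard error 0.134, DESeq2 adjusted p = 0.00088). The GC-corrected log2 ratio was 0.39, with an implied 95% interval from 0.13 to 0.66 and an adjusted p of 0.138 (from the DESeq2 values). Its partner Mpc2, with which it forms the carrier, stood at 878, 925 and 782 and did not pass (-0.24). Of the 75-base stretches of Mpc1, 37.0% occur in other genes, among them Mpc1-ps and the antisense gene 4930506C21Rik, which covers 27.9% of the bases. Mpc1-ps stood at 707, 754 and 683, and the summed means of Mpc1 and Mpc1-ps gave a log2 ratio of 0.42.

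The pyruvate dehydrogenase complex, which makes acetyl-CoA from pyruvate, had its 3 subunits among the 36 genes at log2 ratios above 0. Their transcripts also have low GC contents, 47.2% for Dlat, 45.5% for Pdha1 and 47.3% for Pdhb. Dlat, the acetyltransferase core, stood at 2545, 2596 and 3398 and rose by 0.39 in the authors' deposited table (implied standard error 0.128, DESeq2 adjusted p = 0.0319), just inside the threshold. After GC correction it stood at 0.29 (adjusted p = 0.411, from the DESeq2 values). Pdha1 and Pdhb, the subunits of the first component, had log2 ratios of 0.19 and 0.24 and did not pass. GC-corrected, these were 0.02 and 0.14. Pdha1 stood at 9313, 9509 and 10840. Of the kinases that switch the complex off, Pdk2 stood at 1861, 1961 and 1476, just outside the threshold (log2 ratio -0.41 in the authors' deposited table, DESeq2 adjusted p = 0.0844, GC-corrected -0.04). Pdk4 stood at 1645, 1419 and 1677, so that its Aβ+DFMO mean was next to that of Control. Its log2 ratio of 0.24 did not pass (GC-corrected 0.06). Pdk1 stood at -0.10. Per kilobase, Pdk2 made up 52.6%, 56.2% and 47.2% of the 3 kinases in Control, Aβ and Aβ+DFMO.

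Of the glycogen genes among the 36, Pygb alone passed. Pygb, which releases glucose units from glycogen, stood at 15132, 15356 and 12498 and fell by 0.30 in the authors' deposited table (implied standard error 0.097, DESeq2 adjusted p = 0.0304). After GC correction it stood at -0.06 (adjusted p = 0.971, from the DESeq2 values). It made up 99.9% of the Pygb and Pygm pair per kilobase in each group: Pygm, which is known as the muscle form, stood at 14.9, 10.3 and 7.45, the last being 1 read, and its change cannot be read at this depth. Pygl, the liver form, which is not among the 36 genes, stood at 407, 435 and 402. On the side of synthesis Gys1 stood at 1251, 1260 and 999 (-0.34) and the branching enzyme gene Gbe1 at 1576, 1664 and 2049 (0.30). They lay on opposite sides of 0 and neither passed, and their GC-corrected values were -0.04 and 0.07. The phosphoglucomutase genes Pgm1 and Pgm2 had log2 ratios of -0.11 and -0.01. Phosphoglucomutase activity links glucose 6-phosphate to glycogen, and the part of each gene in that activity was not measured. The symbols of this pair have been exchanged between annotations, so which of them is meant rests on the match of symbols to GENCODE M21.

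**Figure D5:**
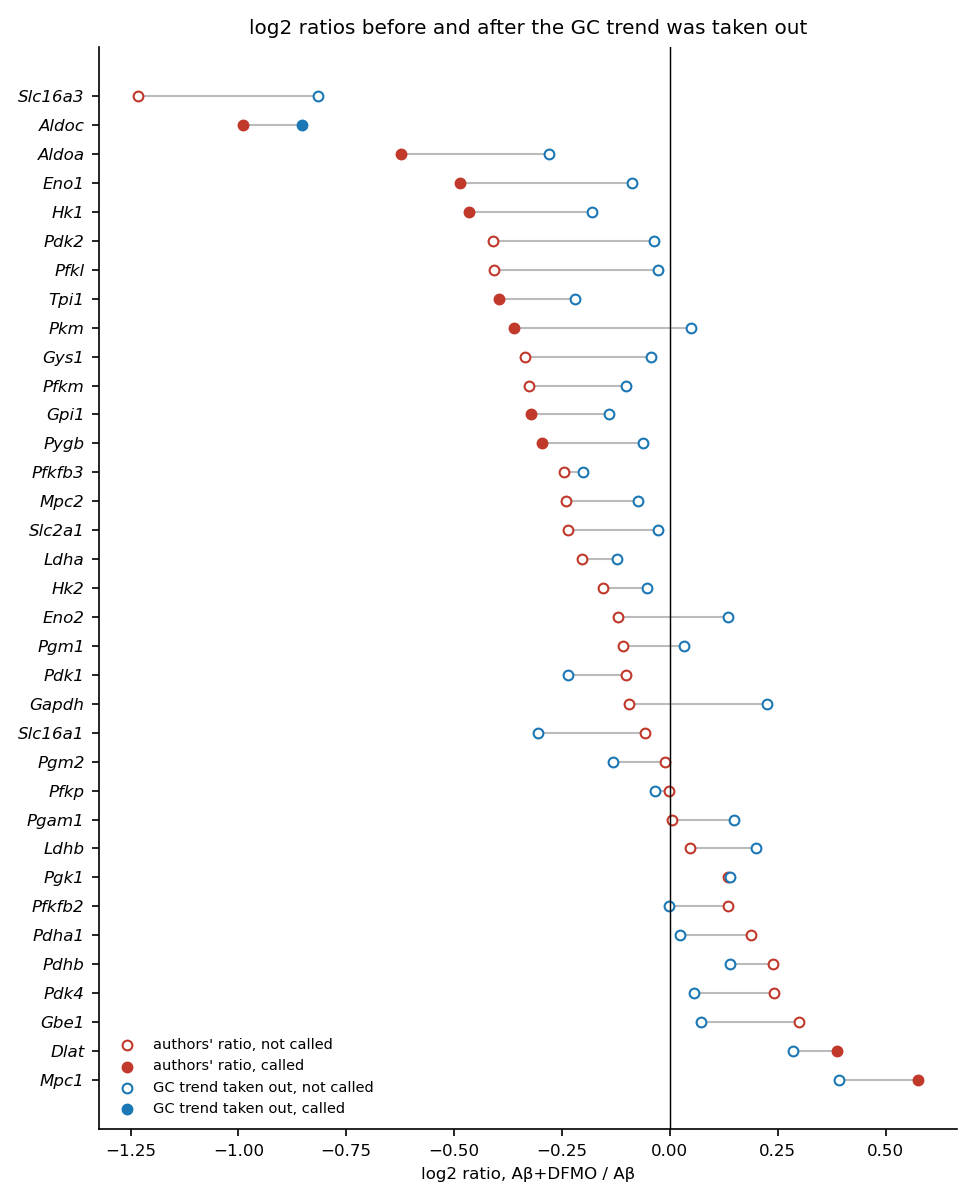
log2 ratio of Aβ+DFMO to Aβ for 35 of the 36 genes (Pygm, with 1 read, is left out), as the authors' ratio (red) and GC-corrected (blue), joined by a line and sorted by the first; filled circles had an adjusted p under 0.05. After the correction most values lie nearer 0 and only Aldoc, at -0.85, has a filled blue circle.

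Set against Control, for which no test was used here, the Aβ+DFMO means had a median log2 ratio of -0.14 over the 36 genes, with 24 below 0 and 12 above. This ratio and that to Aβ share the Aβ+DFMO library, so they are not separate evidence. The values lay near those against Aβ: the difference from Control was -33.8% for Aldoa, -26.4% for Eno1, -22.3% for Hk1, -19.6% for Pkm and -17.4% for Pygb, and 51.9% for Mpc1 and 33.5% for Dlat.

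Genes of neighbouring routes, 119 in all, gave the setting. In Aβ against Control none was called in the authors' deposited table (DESeq2, adjusted p under 0.05), and 1 had an unadjusted p under 0.05, the hexokinase gene Hk3 (log2 ratio 0.43, unadjusted p = 0.013). In Aβ+DFMO against Aβ 18 were called in the authors' deposited table, 4 higher and 14 lower, and 4 after GC correction. As given above, 9.18% of all 18783 genes were called, and 1681 of the 11674 with a mean of at least 200. After GC correction the share was 1.65% of 18592 genes. Neither the 119 genes nor any list below was tested against these shares. The pentose phosphate pathway, which makes NADPH from glucose 6-phosphate, had 1 of 12 measured genes higher and 4 lower, with a median of -0.42 and a median GC content of 53.1%. Its lower genes in the authors' deposited table were Tkt (transketolase, -0.49), Pgd (-0.51), G6pdx (the entry enzyme, -0.46) and Pgls (-0.83), and the higher one was Rpe (0.51). After GC correction none of the 12 was called (from the DESeq2 values) and the median was -0.14.

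Of 31 other glycolysis, lactate and pyruvate genes 3 fell and none rose: Pcx (pyruvate carboxylase, -0.66), G6pc3 (-0.97) and Hk3 (-0.95) in the authors' deposited table, with a list median of -0.09. Of the list of 23 other glycogen genes 3 fell in the authors' deposited table, with a median of -0.02 over the list. They were Gaa (the lysosomal glucosidase that breaks down glycogen, -0.38), Gsk3a (a kinase of glycogen synthase, -0.53) and Wdtc1 (-0.62). Wdtc1 was in the list although it is not an enzyme of glycogen. Of 10 genes of the NADH shuttles 1 fell, Gpd1 (glycerol 3-phosphate dehydrogenase, -1.22 in the authors' deposited table, on 31 reads), with a median of -0.03. None of these 7 was called after GC correction. In the TCA cycle 1 of 20 genes rose (Sucla2, 0.37) and 1 fell (Ogdhl, -0.61) in the authors' deposited table; after GC correction Idh1 alone was called (-0.41). Of 24 regulators and targets of hypoxia-inducible factor 1, 2 rose, P4ha1 (0.51) and Ero1l (0.42), and 2 fell, Egln2 (-1.01) and Ddit4 (-0.83), in the authors' deposited table, with a median of 0.03. After GC correction 3 of the 24 were called, P4ha1 (0.36) and Vegfa (the vascular growth factor, 0.66) higher and Bnip3l (-0.40) lower.

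The authors' deposited pathway table gave a ratio of 0.854 (adjusted p = 0.00051) for its set of 46 glycolysis and gluconeogenesis genes in Aβ+DFMO against Aβ and of 1.02 (adjusted p = 0.707) in Aβ against Control, from a test that the sources used here do not name. Its set of 26 pentose phosphate genes had ratios of 0.765 (adjusted p = 0.0082) and 1.01 (adjusted p = 0.997) in the same order in the authors' deposited table. For the TCA cycle, with 29 genes, the authors' deposited table gave 0.969 (adjusted p = 0.00038) and 1.03 (adjusted p = 0.0024), on opposite sides of 1. For pyruvate metabolism, with 32 genes, it gave 0.949 (adjusted p = 1.09e-11) and 1.02 (adjusted p = 0.630) in the authors' deposited table. The HIF-1 set of 98 genes had 0.927 (adjusted p = 1.04e-09) and 1.01 (adjusted p = 0.995) in the authors' deposited table. For fructose and mannose metabolism, with 33 genes, the authors' deposited table gave 0.751 (adjusted p = 0.0025) and 1.01 (adjusted p = 0.970), and for starch and sucrose metabolism, with 23 genes, 0.907 (adjusted p = 0.871) and 1.04 (adjusted p = 0.828). These sets share genes with the 36 described here and rest on the same libraries. Their values in Aβ+DFMO against Aβ rest on 1 Aβ+DFMO library and are not corrected for the GC trend. The list of 24 regulators and targets of hypoxia-inducible factor 1 above had 16 log2 ratios above 0 and 8 below in that comparison.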

How the data were processed

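Polyadenylated RNA of 5 libraries was aligned and compared with STAR 2.7.3a, Partek, DESeq2 and FastQC, per the submitters' processing notes, which name the mm10 and GRCm39 builds without a role; the sources used here give no annotation, counting method or strand setting. The deposited table gives group means, a normalized signal per the file headers, with their ratio, log2 ratio, p-value and adjusted p-value by the authors; a second deposited file gives the percent of reads in exons, per the file headers. In the files of library summaries 14 columns of per-library values were not used. Counts per library were not used here, so the authors' DESeq2 test took the place of edgeR, and the adjusted p-values were checked against Benjamini-Hochberg values over the 18783 genes.

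A gene was called at an adjusted p under 0.05. Standard errors were implied from p as a Wald test. GC content came from GENCODE M21 (GRCm38; 18592 genes matched, all 36 members), averaged over equally ranked transcripts. The trend was a lowess fit (span 0.3, statsmodels 0.14.6) over genes with a mean of at least 200, tested on simulated data; its own error is not in the recomputed p-values. Of 7161 genes between 0.5 and 27 reads in Aβ+DFMO, 81.1% were whole multiples, within 0.05, of the worth of 1 read. This was too few for a count test. The 36 genes and all lists were chosen with earlier results of these data known. Values were given for every gene called in either comparison, for the gene with the highest mean of each role, for those nearest the threshold and, for other lists, for the called genes or those of smallest p.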

Additional observations from a re-analysis of the deposited data

How the results depend on the processing

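No paired analysis was possible because only group means per gene were used, and for the same reason leaving out each library was not run. The shallow Aβ+DFMO library, the only one of its group, limits the second comparison. In Aβ against Control the count of called genes stayed at 0 of 36 under every alternative run, and the median log2 ratio moved from 0.025 to 0.067 when group means were rescaled to an equal sum. In Aβ+DFMO against Aβ, 10 of 36 were called: 5 at an adjusted p under 0.01 (1 higher, 4 lower), 12 at 0.1, 11 over genes with a mean of at least 200, 10 after centring, and 1 with the GC trend taken out (0 higher, 1 lower), when the median went from -0.18 to -0.0405. The 1 called then, Aldoc, became 10 without the correction and 2 (with Aldoa) under the GC content of the shortest transcript, an alternative chosen after seeing the data. Pkm reversed, to 0.0503 and 0.0406 under those GC settings. Of the 119 genes of neighbouring routes 18 were called, 8 at 0.01 and 4 with the GC trend taken out. For the 10 called genes the direction held under rescaling, centring, and pseudocounts of 10 and 100 units, and all but Pkm kept it with the GC trend taken out, 8 of them without passing.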
